A study of Mus musculus with 24 samples.

Results

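Aminoacyl tRNA synthetases are the enzymes that join each amino acid to its tRNA. The set described here holds 36 of their genes, chosen by symbol. Grouped by symbol, 20 are treated here as cytosolic and 16, with symbols ending in 2, as mitochondrial. Whether a gene grouped as cytosolic also serves the mitochondrion was not considered. All 36 were among the 11140 genes of the deposited count table, and all 36 passed the filter on low counts that left 11020 genes for testing. Farsa and Farsb encode the subunits of a single enzyme for phenylalanine, and Eprs encodes 1 protein that charges both glutamate and proline tRNAs.

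Charging is the step at which the genetic code is read, because the ribosome accepts any amino acid that its tRNA carries. Cytosolic synthetases serve the ribosomes that translate nuclear mRNAs, and several of them sit together with scaffold proteins in a large multisynthetase complex. Mitochondrial synthetases are encoded in the nucleus, imported, and serve the organelle's own ribosomes, which make core subunits of the respiratory chain. Many cytosolic synthetase genes are known targets of ATF4, the transcription factor made when amino acid shortage or another stress leads to phosphorylation of eIF2, and Wars is known as a gene induced by interferon gamma.

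RNA of purified splenic B lymphoma cells from C57BL/6 mice was sequenced. T cell sufficient lymphomas (n = 12) had the genotype Bcl6Tg/+, which carries a Bcl6 transgene. T cell deficient lymphomas (n = 11) had the genotype Bcl6Tg/+CD3Epsilon-/-, the same transgene on a background without the CD3 epsilon chain that T cell development requires. Both genotypes therefore carry the transgene, and no lymphoma-free B cells are among the libraries. The labels do not name the promoter that drives the transgene. The lymphomas were sequenced in 2 runs, which the labels call batches, with 7 sufficient and 5 deficient libraries in run 1 and 5 sufficient and 6 deficient libraries in run 2. The labels number each lymphoma separately and do not name the animals, so p-values measure the spread between these lymphomas.

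Depth ran from 7.58 to 30.6 M counts per library (M, mega) in the sufficient group and from 11.8 to 28.1 M in the deficient group. B cell transcripts were abundant in both groups, with mean Ms4a1 levels of 2430 and 2066 CPM (read counts scaled to a common library total, with TMM factors) in sufficient and deficient lymphomas. Cd3e, the gene deleted in the deficient mice, stood at 0.966 CPM (SD 0.754, n = 12) with T cells and at 2.47 CPM (SD 1.73, n = 11) without, so in these purified B cells its level does not check the labels. Against 11.7% of all genes called lower and 10.6% called higher (edgeR), 4 of 7 B cell markers (57.1%) were lower in deficient lymphomas and 20 of 24 proliferation genes (83.3%) were higher. Of the other marker lists, 2 of 12 monocyte and macrophage markers, 1 of 5 plasma cell markers, 1 of 8 T cell markers and 1 of 3 stromal markers were lower, and 1 of 3 NK cell markers was higher. Of 3 neutrophil and 6 erythroid markers edgeR called none (0 at an unadjusted p under 0.05, 0 by DESeq2, and 1 neutrophil marker higher by limma-voom). The summed monocyte and macrophage markers ranged from 199 to 2290 CPM in the sufficient and from 127 to 608 CPM in the deficient group. In bulk RNA, fewer cells of a type and less RNA per cell cannot be told apart, and the part of these differences in the results below was not tested. The sufficient libraries 9, 10 and 11, all of run 2, hold both Xist and Y-linked transcripts above 10 CPM, and results are therefore also given without these 3 libraries.

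Levels were first compared between genes per kilobase of the longest coding transcript (CPM per kb). The median cytosolic gene stood at 65.0 CPM per kb in sufficient lymphomas and the median mitochondrial gene at 10.7 CPM per kb, a ratio of 6.06. In deficient lymphomas the medians were 62.3 and 11.5 CPM per kb. Among the cytosolic genes, Vars, which charges valine tRNAs, was the most abundant at 255 ± 88.7 CPM per kb (SD, n = 12), followed by Dars (aspartate) at 117 and Gars (glycine) at 114. Aars (alanine) at 39.7, Lars (leucine) at 36.3 and Cars (cysteine) at 21.8 CPM per kb were the least abundant. Among the mitochondrial genes, Lars2 (leucine) was listed at 515 CPM per kb, followed by Iars2 (isoleucine) at 21.8 and Rars2 (arginine) at 21.2. Pars2 (proline) at 3.93, Wars2 (tryptophan) at 3.49 and Mars2 (methionine) at 1.69 CPM per kb were the least abundant. These orders depend on the length used. Per kilobase of all annotated exons of a gene, Vars was at 188 and Lars2 at 181 CPM per kb, Eprs at 17.3 and Farsa at 18.2 CPM per kb came next above the lowest cytosolic gene, Cars at 10.7, and Rars2 at 14.3 and Iars2 at 13.4 CPM per kb stood above Cars.

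Few synthetase transcripts passed the test for a difference between lymphomas with and without T cells. By edgeR's quasi-likelihood test with run as a term, 5 of the 36 genes passed an adjusted p of 0.05 (Benjamini-Hochberg over 11020 genes), against 22.2% of all genes tested. Of the cytosolic genes, Eprs was higher and Vars lower in deficient lymphomas. Of the mitochondrial genes, Fars2, Iars2 and Rars2 were higher and none was lower (1 lower at an unadjusted p under 0.05 and 1 by DESeq2). Over all genes, 10.6% were called higher and 11.7% lower. The median log2 fold change (deficient over sufficient) was 0.13 for the cytosolic genes, 14 of 20 of which had a positive sign, and 0.10 for the mitochondrial genes, 10 of 16 of which had a positive sign. The median over all genes tested was -0.0064, with 5417 of 11020 genes positive. The cytosolic median was 0.23 in run 1 and 0.0024 in run 2, and the mitochondrial median 0.14 and 0.06. With 1 library left out, the cytosolic median ranged from 0.04 to 0.18 and the mitochondrial median from 0.07 to 0.12. An absolute log2 fold change under 0.25 was measured in 29 of the 36 members and in 49.2% of all genes.

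**Figure D1:**
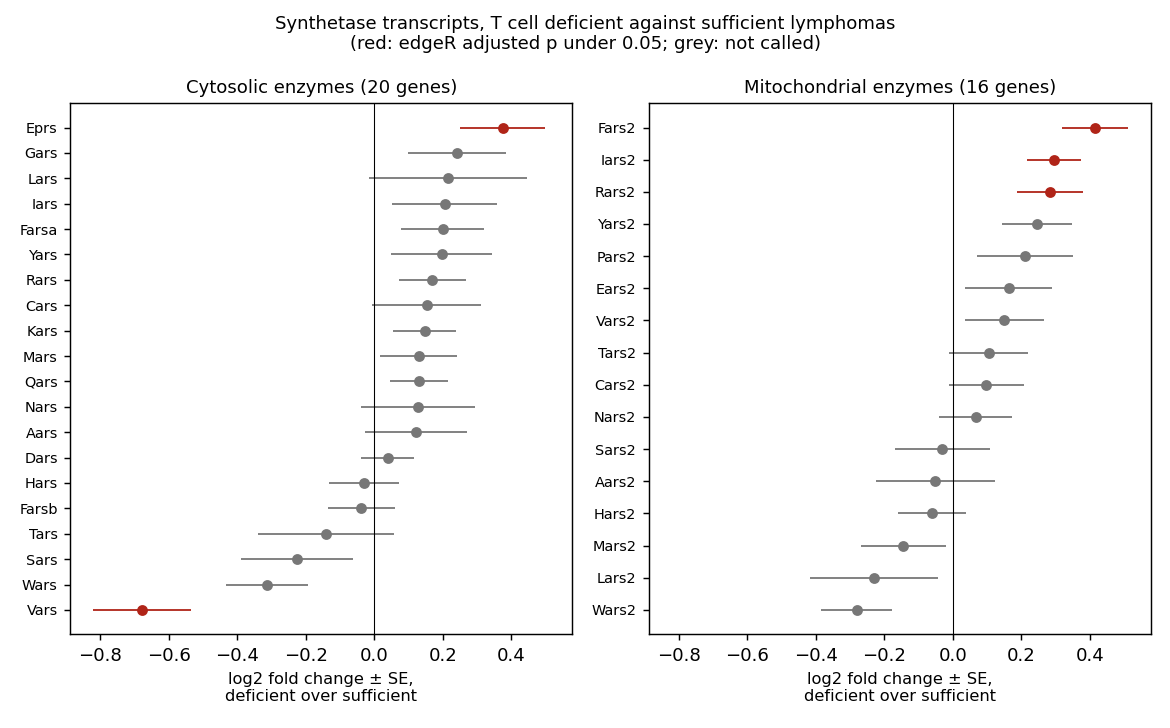
Log2 fold change of each synthetase gene, T cell deficient over T cell sufficient lymphomas, with its standard error as a horizontal bar; 20 cytosolic genes on the left, 16 mitochondrial genes on the right. Red points mark the 5 genes with an adjusted p under 0.05; Vars, at -0.68, lies furthest from 0.

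Vars encodes the cytosolic enzyme for valine (chr17:35000987-35016322, plus strand, GRCm38) and showed the largest difference of the set. Its level in sufficient lymphomas ran from 522 CPM through a median of 1012 CPM to 1675 CPM. In deficient lymphomas it ran from 591 CPM through a median of 640 CPM to 801 CPM. The deficient libraries thus all sat within a narrow band, while the sufficient libraries spread from below that band to far above it. Sufficient lymphomas had a mean of 1054 CPM (SD 367, n = 12) and deficient ones a mean of 661 CPM (SD 63.9, n = 11). Vars fell 1.60-fold, with a log2 fold change of -0.68 ± 0.14 (SE) and an edgeR adjusted p of 0.0025.

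The sufficient libraries of the 2 runs overlapped in Vars. In run 1, 5 of the 7 sufficient libraries lay between 522 and 772 CPM, and the others, sufficient 6 and sufficient 7, were at 1074 and 1357 CPM. In run 2 the 5 sufficient libraries lay between 951 and 1675 CPM. With group as a term, Vars did not pass the test between runs (edgeR adjusted p = 0.0545). The deficient libraries were at 591 to 801 CPM in run 1 and 594 to 742 CPM in run 2. The groups thus overlapped in run 1 and did not overlap in run 2. The share of all genes without overlap in run 2 was not counted. Of the 5 sufficient libraries of run 2, 3 hold both Xist and Y-linked transcripts. Fitted within runs, the log2 fold change was -0.36 in run 1 (edgeR adjusted p = 0.402) and -1.02 in run 2 (edgeR adjusted p = 0.0032). The difference between the runs' fold changes had an edgeR unadjusted p of 0.0149 and an edgeR adjusted p of 0.757. That test called 0 of all 11020 genes, so not passing it is not particular to Vars. Mean Vars levels in sufficient lymphomas were 843 CPM in run 1 and 1348 CPM in run 2. In deficient lymphomas they were 659 and 663 CPM. Without the 3 libraries with Xist and Y-linked transcripts, Vars had a log2 fold change of -0.66 (edgeR adjusted p = 0.0126).

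Eprs, the bifunctional enzyme for glutamate and proline and a member of the multisynthetase complex (chr1:185363044-185428360, plus strand), ran from 230 CPM through a median of 318 to 374 CPM in sufficient lymphomas. In deficient lymphomas it ran from 284 CPM through a median of 366 to 730 CPM. The groups overlapped over most of the sufficient range, and the top value came from deficient 9. Mean levels were 312 CPM (SD 42.6, n = 12) against 400.0 CPM (SD 126, n = 11). Eprs rose with a log2 fold change of 0.37 ± 0.12 (SE; edgeR adjusted p = 0.0344). The call ended when any 1 of 8 libraries was left out (sufficient 7, 8 or 10, or deficient 2, 3, 5, 7 or 9), with adjusted p values up to 0.0635 and log2 fold changes of 0.26 to 0.42 over all single omissions. Without the 3 libraries with Xist and Y-linked transcripts the adjusted p was 0.0541.

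Among the mitochondrial genes, Fars2, the enzyme for phenylalanine (chr13:36117412-36726280, plus strand), had the smallest p. It ran from 18.3 CPM through a median of 25.2 to 35.5 CPM in sufficient lymphomas and from 27.3 CPM through a median of 33.0 to 42.2 CPM in deficient lymphomas. Within each run the deficient libraries were mostly above the sufficient ones. In run 2 they did not overlap (18.3 to 25.3 CPM against 27.3 to 41.2 CPM), and the share of all genes without such overlap was not counted. The 3 libraries with both Xist and Y-linked transcripts are sufficient libraries of run 2. The log2 fold change was 0.41 ± 0.10 (SE; edgeR adjusted p = 0.0048), with 0.33 in run 1 and 0.50 in run 2. Fars2 passed within run 2 alone (edgeR adjusted p = 0.0390) and without the 3 libraries with Xist and Y-linked transcripts (adjusted p = 0.0317). The exons of Fars2 overlap those of Nrn1 by 501 bases and of Lyrm4 by 115 bases on the opposite strand. Lyrm4 itself had a log2 fold change of 0.50 (edgeR adjusted p = 0.0630), and since the strand setting of the counting is not given, reads of the shared bases cannot be assigned.

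Iars2, the mitochondrial enzyme for isoleucine (chr1:185284726-185329396, minus strand), ran from 102 CPM through a median of 121 to 136 CPM in sufficient lymphomas. In deficient lymphomas it ran from 106 CPM through a median of 147 to 180 CPM. Each deficient library except deficient 6 was above the sufficient median, and 7 of the 11 were above the highest sufficient value. The log2 fold change was 0.29 ± 0.08 (SE; edgeR adjusted p = 0.0119), with 0.32 in run 1 and 0.26 in run 2. Without the 3 libraries with Xist and Y-linked transcripts the adjusted p was 0.0539. The gene lies near Eprs on chromosome 1 and shares 2034 exonic bases on the opposite strand with Rab3gap2, whose log2 fold change was -0.19 (edgeR adjusted p = 0.207).

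Rars2, the mitochondrial enzyme for arginine (chr4:34614957-34660167, plus strand), ran from 31.5 CPM through a median of 40.0 to 45.6 CPM in sufficient and from 32.7 CPM through a median of 47.6 to 57.0 CPM in deficient lymphomas. The lowest deficient library was above 3 sufficient libraries, and the deficient libraries extended above the highest sufficient one. The log2 fold change was 0.28 ± 0.10 (SE; edgeR adjusted p = 0.0372), with 0.27 in run 1 and 0.30 in run 2. The call ended when any 1 of 11 libraries was left out (sufficient 7, 10, 11 or 12, or deficient 2, 3, 4, 5, 7, 9 or 10), with adjusted p values up to 0.0800, and without the 3 libraries with Xist and Y-linked transcripts it was 0.104. Rars2 and Eprs also did not pass without the run term (edgeR adjusted p = 0.0642 and 0.0666). Over both runs together, none of the 5 called genes had groups that did not overlap, a pattern found in 0.163% of all genes tested.

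**Figure D2:**
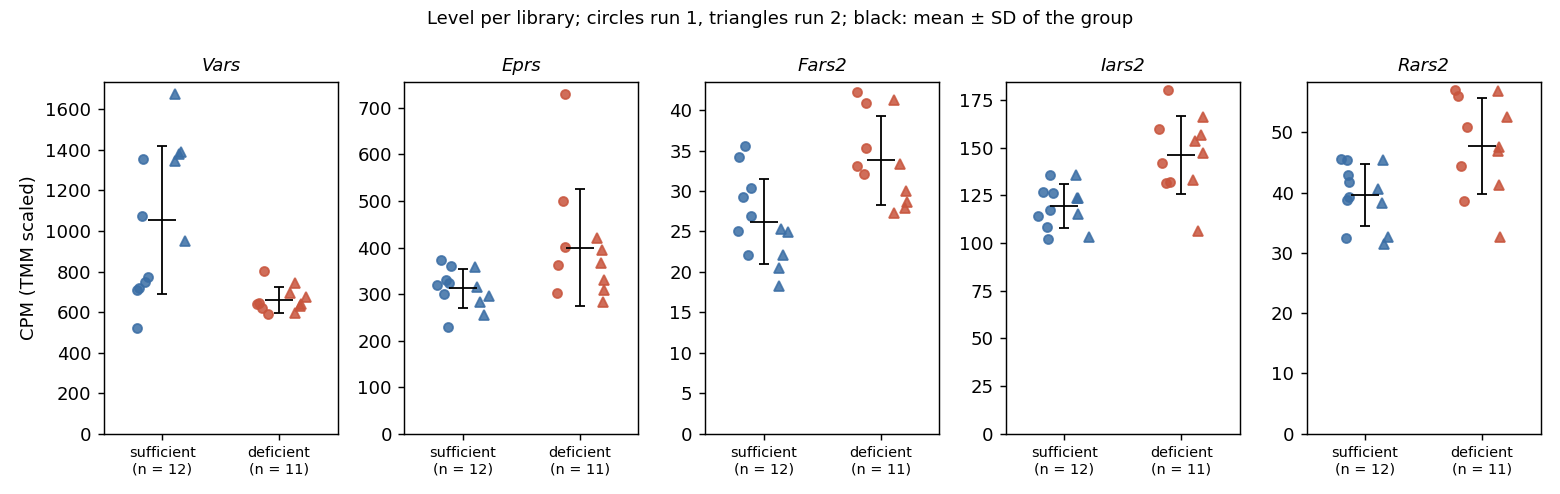
Level of the 5 called genes in each library (CPM scaled by TMM, axes from 0), by group, with circles for run 1, triangles for run 2 and the group mean ± SD in black. Vars is spread from 522 to 1675 CPM in sufficient lymphomas and lies within 591 to 801 CPM in deficient lymphomas. All 5 genes overlap between groups.

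Of the members not called, 3 came near the threshold. Wars, the cytosolic enzyme for tryptophan, averaged 136 CPM (SD 37.4, n = 12) with T cells and 106 CPM (SD 25.9, n = 11) without, with a log2 fold change of -0.31 ± 0.12 (SE; edgeR adjusted p = 0.0628). Its mitochondrial counterpart Wars2 averaged 15.4 CPM (SD 2.37) and 12.8 CPM (SD 1.94), with a log2 fold change of -0.28 ± 0.10 (SE; edgeR adjusted p = 0.0534). Yars2, the mitochondrial enzyme for tyrosine, had a log2 fold change of 0.25 ± 0.10 (SE; edgeR adjusted p = 0.0838). DESeq2 called Wars (adjusted p = 0.0400) and Wars2 (adjusted p = 0.0226) lower and did not call Yars2, which passed when libraries were scaled by their totals, when sufficient 9 or deficient 6 was left out, and at a threshold of 0.1. Beside Wars, 11 of 25 interferon gamma response genes (44.0%) were lower in deficient lymphomas, against 11.7% of all genes, and none higher, with a median log2 fold change of -0.56. Cd274 (PD-L1) at -1.60, Ifi30 at -1.32, the peptide transporter subunit Tap2 at -0.43 and the chemokine Cxcl9 at -2.93 had the smallest p values of that list, each with an edgeR adjusted p under 0.05. The part of these genes' shared difference in that of Wars was not tested.

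The 2 structural classes of synthetase, which differ in the fold of their catalytic domain, gave counts of 3 called of 18 for class I and 1 of 17 for class II, with Eprs, which holds both folds, left out. These are 16.7% and 5.88%, beside the 22.2% of all genes called. Medians were 0.15 and 0.07 on the log2 scale. Of the 8 genes whose enzymes belong to the multisynthetase complex, only Eprs was called (12.5%). All 8 had a positive log2 fold change, with a median of 0.16, beside 5417 of the 11020 genes tested. Within runs, Dars was at -0.03 in run 1, and Lars and Mars were at -0.06 and -0.01 in run 2. Lars was at -0.02 without deficient 9. The 12 cytosolic genes outside the complex had a median of 0.05, with Vars called. The complex's scaffold genes Aimp1 (log2 fold change -0.04, edgeR adjusted p = 0.794), Aimp2 (0.16, 0.229) and Eef1e1 (0.11, 0.608) were not called.

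The authors' deposited table of limma results, which uses these same libraries, calls 22.8% of its 11140 genes at an FDR under 0.05 and calls the same 5 members. In the authors' deposited table the log2 fold changes are -0.64 for Vars, 0.34 for Eprs, 0.41 for Fars2, 0.29 for Iars2 and 0.28 for Rars2. Its FDR is 0.0035 for Vars and 0.0053 for Fars2, and 0.0456 for Eprs and 0.0451 for Rars2.

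For each amino acid with both enzymes measured, the mitochondrial gene was set against its cytosolic counterpart within each library, which removes the library's scaling. Fars2 was set against Farsa alone and not against the other subunit gene, Farsb, and Ears2 and Pars2 were both set against Eprs. The log2 fold change was 0.20 for Farsa and -0.04 for Farsb, and Fars2 over Farsb was not tested. Of the 16 pairs so formed, 1 differed between groups after adjustment over the 16 pairs. The log2 ratio of Vars2 over Vars was -4.74 ± 0.46 (SD, n = 12) in sufficient and -3.94 ± 0.21 (SD, n = 11) in deficient lymphomas. Its difference within runs was 0.82 (permutation test within runs, two-sided, p = 0.00022, adjusted p = 0.0035). Vars2 itself had a log2 fold change of 0.15 (edgeR adjusted p = 0.361), so most of the difference in the ratio lay in Vars. The ratio differed by 0.50 in run 1 (exact permutation test, adjusted p = 0.886) and by 1.15 in run 2 (exact permutation test, adjusted p = 0.0346). Without the 3 libraries with Xist and Y-linked transcripts it differed by 0.79 (permutation adjusted p = 0.0144). Next in size among these 16 pairs were Tars2 over Tars (threonine) at 0.37 and Lars2 over Lars at -0.31. Their permutation adjusted p values were 0.386 and 0.759. Over the 16 pairs, 10 differences were positive and 6 negative.

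The cytosolic genes varied together from lymphoma to lymphoma within the groups. After group and run means were removed from log2 CPM, the 190 pairs of cytosolic genes had a median Pearson correlation of 0.58 over 23 libraries (Spearman 0.61), and 180 of the 190 were positive. Pairs of mitochondrial genes had a median of 0.12 and pairs of 1 cytosolic with 1 mitochondrial gene a median of 0.10, while over all gene pairs tested the median was 1e-04. These are descriptions without a test, since all genes share the same libraries. Nars (asparagine) had the highest median correlation with the other cytosolic genes, at 0.74, followed by Cars at 0.71. Vars stood outside, at -0.01, and without it all 171 cytosolic pairs were positive with a median of 0.61. Among the mitochondrial genes, Rars2 at 0.56 and Iars2 at 0.52 had the highest median correlations with the cytosolic genes, whereas Lars2 was at -0.16 and Vars2 at -0.23.

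**Figure D3:**
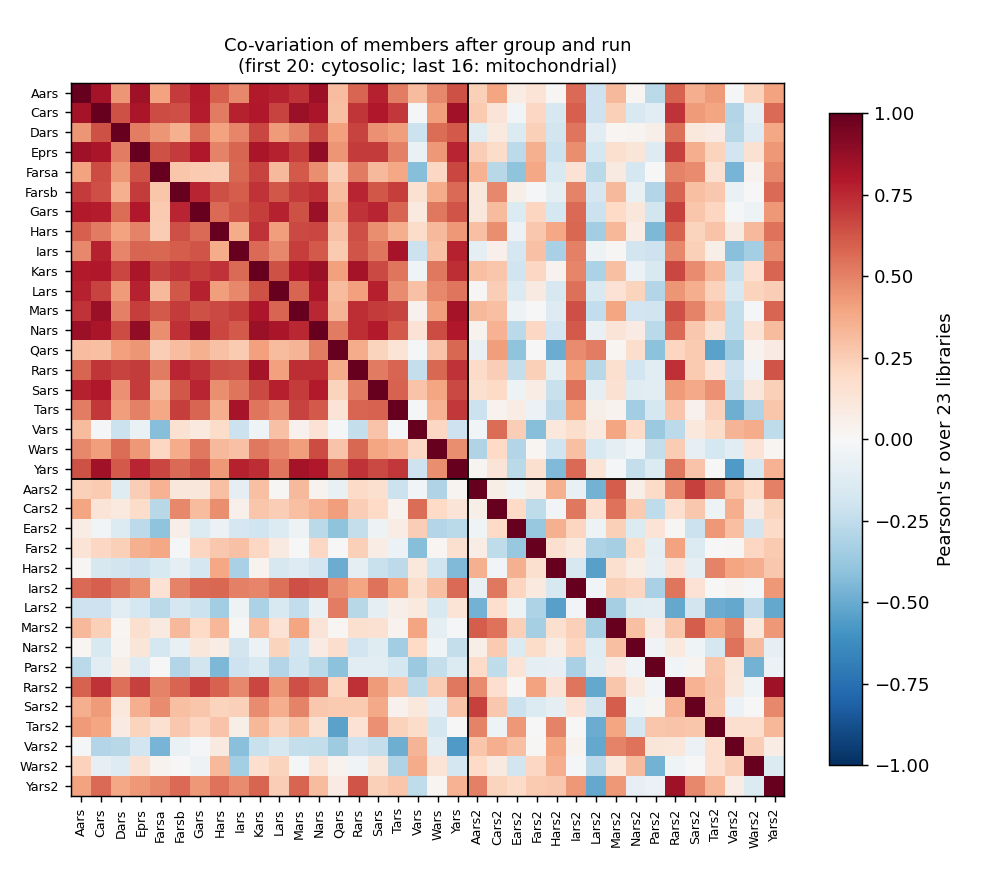
Pearson correlation between each pair of the 36 genes over 23 libraries, after group and run means were removed; the first 20 rows and columns are cytosolic and the last 16 mitochondrial. The cytosolic block is red throughout except for Vars, and Iars2, Rars2 and Yars2 are the mitochondrial rows with most red against it.

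The cytosolic level ranged more widely among lymphomas without T cells. Summed over the 20 cytosolic genes, sufficient lymphomas ran from 4046 to 5359 CPM, with a mean of 4725 ± 382 CPM (SD, n = 12). Deficient lymphomas ran from 3079 to 7189 CPM, with a mean of 4509 ± 1190 CPM (SD, n = 11). The deficient libraries thus extended both below and above the sufficient ones, with similar means. Vars holds a large part of this sum: without it the sufficient libraries ran from 2699 to 4638 CPM, with a mean of 3671 ± 523 CPM (SD, n = 12), and the deficient ones from 2337 to 6388 CPM, with a mean of 3848 ± 1170 CPM (SD, n = 11). The order of the means thus turned without Vars, and the deficient range stayed the wider. Deficient 9 had the highest level of all 23 libraries in 9 of the 20 cytosolic genes and deficient 7 in 7, while deficient 6 had the lowest in 11. The share of all genes with an extreme in these libraries was not counted. Median correlations of cytosolic pairs were 0.34 within sufficient and 0.78 within deficient lymphomas, and the latter was 0.80 without deficient 9; the difference between groups was not tested. Over all libraries the median was 0.56 without deficient 9 and 0.48 without deficient 6 and 9. The sum of the mitochondrial genes other than Lars2 ran from 450 to 574 CPM in sufficient lymphomas, with a mean of 505 ± 48.3 CPM (SD, n = 12). In deficient lymphomas it ran from 511 to 636 CPM, with a mean of 565 ± 43.7 CPM (SD, n = 11). Mean sums in sufficient and deficient lymphomas were 488 and 566 CPM in run 1, and 530 and 564 CPM in run 2. The difference in this sum between groups was not tested.

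**Figure D4:**
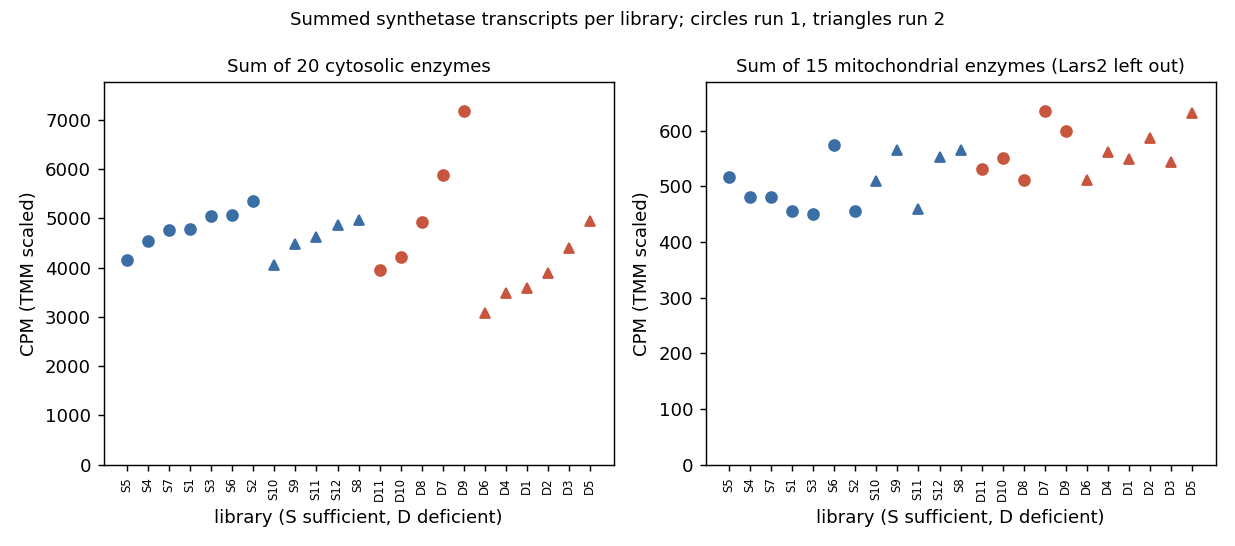
Sum of the 20 cytosolic genes (left) and of the 15 mitochondrial genes without Lars2 (right) in each library (CPM scaled by TMM, axes from 0), ordered within group and run by the cytosolic sum; blue is sufficient, red deficient, circles run 1 and triangles run 2. The cytosolic sum spans 3079 to 7189 CPM in deficient and 4046 to 5359 CPM in sufficient lymphomas.

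Nars, which had the highest median correlation with the other cytosolic genes, serves as an example of the pattern and not as separate evidence. It ran from 179 CPM through a median of 298 to 395 CPM in sufficient lymphomas, and from 153 CPM through a median of 282 to 716 CPM in deficient lymphomas. The highest value was deficient 9 and the lowest deficient 6, so the group with the wider range held both extremes. The log2 fold change was 0.13 ± 0.17 (SE; edgeR adjusted p = 0.606) and turned to -0.02 without deficient 9. The same library moved Aars from 0.12 to -0.02 and Lars from 0.21 to -0.02.

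Genes known as ATF4 targets, in a list that also holds Atf4, were measured beside the synthetases. Deficient 9 also held the highest level in 21 of the 27 tested genes of that list, among them Asns (asparagine synthetase), at 398 CPM against a deficient median of 72.7 CPM. The share of all genes with their highest level in deficient 9 was not counted. Between the groups, 3 of the 27 (11.1%) were higher, near the 10.6% of all genes called higher, and none was lower. The median log2 fold change was 0.41, with 9 higher at an unadjusted p under 0.05, 5 by DESeq2 and 2 by limma-voom. The 3 were Stc2, a secreted glycoprotein (log2 fold change 5.56, from 0.274 to 12.9 CPM, edgeR adjusted p = 0.0012; 3.93 and 0.0123 without deficient 9, which alone was at 83.1 CPM), the cationic amino acid transporter Slc7a1 (0.51, 0.0135) and Phgdh, the entry enzyme of serine synthesis (0.59, 0.0260). By limma-voom the adjusted p of Stc2 was 0.0511, and without the run term that of Phgdh was 0.136. Atf4 itself, counted among the 27, had a log2 fold change of -0.23 (edgeR adjusted p = 0.424). Cth, of the transsulfuration pathway, had a log2 fold change of 1.76 (edgeR adjusted p = 0.0580), and 0.22 without deficient 9 (adjusted p = 0.807). Of 16 genes for eIF2, its exchange factor and its kinases, Eif2ak3 (PERK, -0.57, edgeR adjusted p = 0.0208) and Eif2ak1 (HRI, -0.40, 0.0377) were lower and Eif2b3, a subunit of the exchange factor, was higher (0.43, 0.0450). Among these, single omissions ended the call of Eif2ak1 for 10 of 23 libraries and that of Eif2b3 for 16, and limma-voom called 1 lower and 0 higher.

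Because the cytosolic genes co-varied, their promoters were searched for letters that ATF4 is known to bind. RefSeq promoters of GRCm38.p6, from 250 bases before to 50 bases after each start, were at hand for 13 cytosolic and 14 mitochondrial genes. The composite C/EBP-ATF element, searched as TGATGNAA on both strands, occurred in 5 of the 13 cytosolic promoters (Aars, Gars, Iars, Tars and Yars) and in none of the 14 mitochondrial ones, and in 4.51% of 27025 genes with a promoter. It does not overlap the E-box CACGTG, which MYC and other factors bind, in these promoters. The E-box occurred in 4 of the 13 (Aars, Farsb, Iars and Tars), in 1 of the 14 (Ears2) and in 8.09% of all genes. The windows below show the 5 cytosolic promoters with the element, and that of Iars2 as a mitochondrial gene that co-varied with them and has no match. Each is given 5′ to 3′ on the gene's own strand, ends 20 bases past the start, and has the matching 8 letters in capitals. A match is a description of the sequence and does not show binding.
Aars (chr8:111033712-111033861, plus strand): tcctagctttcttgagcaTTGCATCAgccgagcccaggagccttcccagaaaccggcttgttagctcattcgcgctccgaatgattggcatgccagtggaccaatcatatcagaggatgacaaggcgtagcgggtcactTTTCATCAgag
Iars (chr13:49682060-49682149, plus strand): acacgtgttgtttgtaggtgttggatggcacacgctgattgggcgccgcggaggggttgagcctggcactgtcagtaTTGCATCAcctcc
Tars (chr15:11399639-11399728, minus strand): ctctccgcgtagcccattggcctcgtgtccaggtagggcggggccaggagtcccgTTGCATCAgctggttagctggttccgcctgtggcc
Gars (chr6:55037931-55038020, plus strand): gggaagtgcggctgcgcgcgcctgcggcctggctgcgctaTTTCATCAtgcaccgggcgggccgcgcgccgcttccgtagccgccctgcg
Yars (chr4:129189833-129189922, plus strand): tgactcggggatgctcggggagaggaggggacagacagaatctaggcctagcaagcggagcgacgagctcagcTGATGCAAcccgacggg
Iars2 (chr1:185329382-185329471, minus strand): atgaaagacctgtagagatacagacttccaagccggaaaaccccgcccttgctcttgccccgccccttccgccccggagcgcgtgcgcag
Aars holds the element at both ends of its window, and in 4 of the 5 genes it reads on the strand opposite to the gene, with Yars the exception. Median correlations with the other cytosolic genes were 0.63 for Aars, 0.57 for Iars, 0.54 for Tars, 0.64 for Gars and 0.66 for Yars. The searched cytosolic genes without the element ran from 0.31 for Qars (glutamine) to 0.70 for Eprs, with Kars (lysine) at 0.69. No promoter was at hand for Cars, Hars, Lars, Nars, Rars, Vars and Wars. These include the highest median correlations, Nars at 0.74 and Cars at 0.71, and the lowest, Vars at -0.01. The part of the element in the co-variation was not tested.

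Run separated more members than group did, as it did over all genes tested. With group as a term, 15 of the 36 members differed between runs, a share near the 36.3% of all genes tested. Between groups 5 of the 36 differed, against 22.2% of all genes tested. Of the cytosolic genes 11 were lower in run 2 and none higher, with a median log2 difference (run 2 over run 1) of -0.33, and of the mitochondrial genes 3 were lower and 1 higher, with a median of 0.08. Over all genes 17.7% were lower and 18.6% higher in run 2. Yars (tyrosine), at -0.60, and Dars, at -0.59 (edgeR adjusted p = 3.75e-06), were among the lower cytosolic genes, and Hars2 (histidine), at 0.46 (edgeR adjusted p = 8.93e-04), was the higher mitochondrial gene. Run is a term of the group comparison, and both groups stand in both runs.

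Lars2 differed most between the runs. In run 1 it ran from 897 to 4107 CPM in sufficient and from 1198 to 2892 CPM in deficient lymphomas, and in run 2 from 832 to 1253 CPM and from 802 to 1126 CPM. Apart from sufficient 6 and deficient 7, each run 1 library was above each run 2 library. The log2 difference of run 2 over run 1 was -1.29 ± 0.19 (SE; edgeR adjusted p = 1.34e-05), while the group difference was -0.23 ± 0.19 (SE; edgeR adjusted p = 0.386). The longest coding transcript of Lars2 shares 72 bases at 98.6% identity with Gm15564, an antisense gene elsewhere in the genome that has no row in the table. Mir6236, a short annotated RNA, was lower in run 2 as well, with a log2 difference of -4.11 ± 0.30 (SE; edgeR adjusted p = 9.15e-10), and Rn45s, the ribosomal RNA precursor, had a difference of 0.64 (edgeR adjusted p = 0.0507). Their part in the level of Lars2 was not tested.

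**Figure D5:**
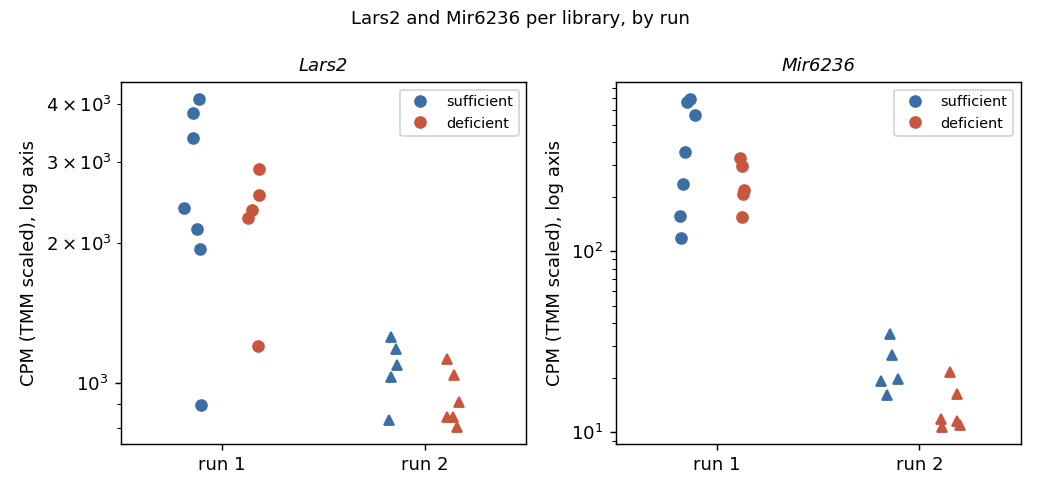
Level of Lars2 (left) and Mir6236 (right) in each library by run, on log axes (CPM scaled by TMM); blue is sufficient, red deficient. Both are lower in run 2, where Lars2 lies between 802 and 1253 CPM and Mir6236 between 10.7 and 34.9 CPM.

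Other genes of tRNA charging and maturation were measured beside the 10.6% of all genes called higher and the 11.7% called lower. Of 13 further genes that act on charged tRNAs or belong to related enzymes, Dtd1, which removes D-amino acids from tRNA (log2 fold change 0.55, edgeR adjusted p = 0.0200), and Aarsd1, an alanyl tRNA editing protein (0.24, 0.0427), were higher (15.4%). The call of Aarsd1 ended for 14 of the 23 single omissions, with adjusted p values up to 0.0807. Qrsl1, a subunit of the mitochondrial glutaminyl tRNA amidotransferase, was at 0.47 (edgeR adjusted p = 0.0509), and Tarsl2, a second threonyl enzyme, at 0.47 (0.0611). Of 41 tRNA modification genes 5 were higher (12.2%) and none lower. They were Cdk5rap1 (0.92, edgeR adjusted p = 0.0096) and Qtrt1 (0.46, 0.0074), which modify bases in the anticodon loop, Ctu2 (0.32, 0.0155) and Elp3 (0.30, 0.0358), which act on the wobble uridine, and Yrdc (edgeR adjusted p = 0.0391), named after its value was seen. The call of Elp3 ended for 9 of the 23 single omissions. None of 23 tRNA processing and export genes was called by edgeR, DESeq2 or limma-voom, and 4 were higher and 1 lower at an unadjusted edgeR p under 0.05. The 4 with the smallest p, Rpp40 (0.48), Xpot (0.34), Ddx1 (0.26) and Rtcb (-0.17), had adjusted p values of 0.0828 to 0.126.

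The factors that use charged tRNAs on the ribosome were measured in both compartments. Of 9 cytosolic elongation and termination genes, Gspt1, the release factor eRF3 (0.30, edgeR adjusted p = 0.0218), was higher, and Eef1g (-0.35, 0.0464) and Eef1d (-0.32, 0.0476), subunits of the exchange factor for eEF1A, were lower. The calls of Eef1g and Eef1d each ended for 16 of the 23 single omissions, with adjusted p values up to 0.0898. Of 12 mitochondrial translation factors, Tsfm, the exchange factor for the mitochondrial elongation factor Tu (0.38, edgeR adjusted p = 0.0076), was higher and none was lower. The median log2 fold changes were -0.12 and 0.01. These counts, 3 of 9 and 1 of 12, stand beside the 22.2% of all genes called, and no list was tested as a list.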

How the data were processed

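RNA-seq libraries of purified splenic B lymphoma cells were made with a TruSeq RNA kit, per the labels' protocols. The authors deposited raw counts for 23 libraries by gene symbol, beside CPM that equal each count over its column total within 5e-04, and a table of log2 fold changes, p-values and adjusted p-values. Genes in the table exceed 1 CPM in 7 or more libraries. The submitters' processing notes name limma and the builds mm10 and GRCm38. The sources used here give no aligner, counting tool, annotation or strand setting. The second library of sufficient lymphoma 1 (24 samples in all) was not analysed as its own, and 1 column was matched to sufficient 4 by its number. Whether the column of sufficient 1, the deepest, holds its run 1 library alone or both libraries is not stated. That column was counted here in run 1.

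Counts were tested with edgeR 4.0.16 (R 4.3.3; filterByExpr, TMM, robust quasi-likelihood, terms for run and group). The filter removed 120 genes. SE is the log2 fold change over the square root of F. A count of 3 is worth 0.0980 CPM in the deepest library, for counting error only. Log2 CPM for correlations used a prior count of 2, and ratios were permuted 100000 times within runs. Positions and transcript lengths come from GENCODE M21 (GRCm38). Members and gene lists were chosen with earlier results of these data known. All called members are named; of the others, the 3 most and 3 least abundant per compartment and those passing in 1 run or under 1 alternative, and up to 4 genes of each related list with the smallest p. The code was tested on simulated counts. Alternatives were other scalings, no filter, DESeq2 1.42.0, limma-voom (limma 3.58.1), no run term, single runs, a threshold of 0.1, a replicate block, single libraries left out and, chosen after seeing the data, 3 libraries with Xist and Y-linked transcripts left out.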

Additional observations from a re-analysis of the deposited data

How the results depend on the processing

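The same 5 members were called with RLE or upper quartile factors, without the filter and with limma-voom, and Vars, Fars2 and Iars2 were called in each fit with 1 library left out. Scaling by library totals, which shifts the median of all genes to 0.06, added Yars2 and turned the uncalled Farsb to 0.032, Hars to 0.041, Aars2 to 0.024, Hars2 to 0.012, Sars2 to 0.044 and Aimp1 to 0.036. DESeq2 gave 2 cytosolic and 1 mitochondrial gene lower, as did a threshold of 0.1 (2 and 1). Without the run term Vars, Fars2 and Iars2 were called and Eprs and Rars2 were not, so 0 cytosolic genes were higher, and Dars turned to -0.049.

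In run 1 alone 0 cytosolic genes were higher and 0 lower, 0 mitochondrial genes were higher, and edgeR called 0 genes higher and 0 lower of all (1832 at an unadjusted p under 0.05), with 0 pairs past the threshold. Uncalled values that turned there were Dars at -0.034, Farsb at 0.071, Hars at 0.079, Aars2 at 0.080, Mars2 at 0.071, Sars2 at 0.14, Fars2 over Farsa at -0.014 and Nars2 over Nars at -0.14. In run 2 alone 0 cytosolic genes and 1 mitochondrial gene were higher, with 629 genes higher and 730 lower of all. Uncalled values that turned there were Aars at -0.21, Lars at -0.057, Mars at -0.013, Nars at -0.071, Cars2 at -0.11, Aars2 over Aars at 0.0037, Cars2 over Cars at -0.055, Hars2 over Hars at 0.042, Pars2 over Eprs at 0.21 and Wars2 over Wars at -0.043. With 1 CPM added, Cars2 over Cars was -0.0021. Fewer samples enter these fits.

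Without the 3 libraries with Xist and Y-linked transcripts, an omission chosen after seeing the data, 0 cytosolic genes and 1 mitochondrial gene were higher, and the count for all genes called higher was 653 and for all genes called lower 817. There Pars2 over Eprs turned to 0.032 and Wars2 over Wars to -0.067.

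Replicate numbers do not pair the lymphomas: of 11 same-numbered pairs, 3 had correlated deviations over 0.1 (range -0.422 to 0.233), and 1 sufficient library was closest to its own number. With the replicate number as a block, Vars, Fars2 and Iars2 were called, 0 cytosolic genes were higher, and the uncalled Hars turned to 0.027, Aars2 to 0.010, Hars2 to 0.010 and Sars2 to 0.0025.

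With 1 library left out, 0 to 1 cytosolic genes were higher and 1 to 2 lower, and 0 to 1 mitochondrial genes were lower. Wars was lower without sufficient 4, 5 or 10 or deficient 7, and Wars2 without sufficient 4 or 9 or deficient 1, 6 or 7. Uncalled members that changed sign ranged from -0.018 to 0.16 (Aars), -0.081 to 0.050 (Hars), -0.022 to 0.31 (Lars), -0.024 to 0.18 (Nars), -0.12 to 0.016 (Aars2), -0.092 to 0.0081 (Hars2), -0.098 to 0.018 (Sars2) and -0.079 to 0.0015 (Aimp1). Pairs that did so ranged from -0.19 to 0.021 (Aars2 over Aars), -0.058 to 0.10 (Cars2 over Cars), -0.075 to 0.046 (Hars2 over Hars), -0.077 to 0.084 (Nars2 over Nars), -0.18 to 0.036 (Pars2 over Eprs) and -0.061 to 0.061 (Wars2 over Wars). In each case the cause was not tested.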
